A study of Rattus norvegicus with 6 samples.

Results

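The 10 genes described here encode proteins of the zymogen granule, or of the endoplasmic reticulum (ER) that feeds it, in pancreatic acinar cells: Gp2, Sycn, Zg16, Cuzd1, Rnase1, Klk1, Dnase1, Tmed6, Erp27 and Pdia2. They were chosen by symbol, and each symbol was found on 1 row of a table that holds 19780 gene symbols. Bulk poly(A) RNA sequencing measured them in pancreas of wild type male Sprague-Dawley rats, 8 weeks old, in 3 libraries of acute pancreatitis (AP) after intraperitoneal L-arginine and 3 libraries of controls given intraperitoneal saline. The sample labels give 5 mg/kg and 36 hours for the L-arginine, whereas the design text gives 2 doses of 2.5 g/kg and 48 hours, and which of these applied is not settled by the labels. The comparison asks how transcripts of the AP pancreas differ from those of the control pancreas, and AP libraries held 17404247 to 18961353 counts and control libraries 14453584 to 18196636.

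Acinar cells store digestive proenzymes in zymogen granules and release them into the ducts when a meal arrives. Cargo is folded and disulfide-bonded in the ER, moves through the Golgi and condenses in granules, where a matrix of lectins and glycoproteins lines the inner face of the membrane. GP2 is a glycolipid-anchored protein and the most abundant protein of that membrane, syncollin (Sycn) binds the membrane from the inside, and ZG16 is a lectin that links aggregated enzymes to it. CUZD1 carries CUB and zona pellucida domains and is found in the granule. RNase 1 is the secreted ribonuclease that digests dietary RNA, DNase I digests DNA and tissue kallikrein (Klk1) releases kinins from kininogen. Tmed6 encodes a p24-type cargo receptor of the ER and Golgi, and Erp27 and Pdia2 encode disulfide isomerase family members of the ER, of which ERp27 has no catalytic cysteines. These last 3 are therefore ER or Golgi proteins and not granule contents.

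The promoters of 3 genes are shown because the genes moved together and by different amounts, with Cuzd1 and Rnase1 at the large end and Gp2 near the small end. Each is the RefSeq promoter window of 300 bases, from 250 before the transcription start to 50 after it, in build GRCr8. The windows lie at chr1:195532684-195532983 for Cuzd1, chr15:26837096-26837395 for Rnase1 and chr1:183243905-183244204 for Gp2, all on the minus strand. Capitals mark the E-box CANNTG, which basic helix-loop-helix factors such as PTF1A read, the half-site TGGGAA of RBPJ-type factors, the half-site AAGGTCA of NR5A2 and the TATA box TATAAA, on either strand. CANNTG can share its last 2 bases with TGGGAA.
Cuzd1: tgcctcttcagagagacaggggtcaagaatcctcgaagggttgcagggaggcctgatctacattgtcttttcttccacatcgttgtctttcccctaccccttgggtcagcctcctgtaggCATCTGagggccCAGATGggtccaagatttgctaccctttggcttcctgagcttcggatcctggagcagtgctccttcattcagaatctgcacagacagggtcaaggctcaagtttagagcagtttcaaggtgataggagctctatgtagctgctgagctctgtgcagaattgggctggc
Rnase1: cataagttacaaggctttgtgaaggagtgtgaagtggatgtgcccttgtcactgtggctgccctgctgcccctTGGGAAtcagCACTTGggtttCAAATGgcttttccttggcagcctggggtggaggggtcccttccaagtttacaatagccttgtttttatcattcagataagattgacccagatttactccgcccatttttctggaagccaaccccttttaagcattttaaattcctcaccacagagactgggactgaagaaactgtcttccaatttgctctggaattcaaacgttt
Gp2: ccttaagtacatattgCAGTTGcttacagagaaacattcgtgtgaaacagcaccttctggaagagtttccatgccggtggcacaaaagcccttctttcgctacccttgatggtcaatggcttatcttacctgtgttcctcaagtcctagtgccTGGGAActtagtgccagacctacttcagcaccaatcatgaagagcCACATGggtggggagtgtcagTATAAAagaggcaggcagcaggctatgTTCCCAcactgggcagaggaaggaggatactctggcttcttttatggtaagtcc
The Gp2 window held TATAAA at position -31 and TGGGAA at -97 and, on the reverse strand, at -4, counted from the start site. The Rnase1 window held TGGGAA at -177, and of these motifs the Cuzd1 window held the E-box alone, at -130 and -118. Of the 10 genes, 7 had a promoter entry. CANNTG was in 7 of these 7 windows and in 72.1% of 33469 promoter windows of the same length. Its form CACCTG, which none of the windows shown holds, was in 4 (Tmed6, Pdia2, Klk1 and Dnase1) and 18.8%. TGGGAA was in 3 and 25.7%, TATAAA in 2 and 14.2%, and AAGGTCA in 1 and 4.61%. The AAGGTCA window was that of Klk1, which also held TGGGAA, and Dnase1 held TATAAA. Klk1 and Dnase1 were hardly detected in these libraries, so these counts do not describe only genes that fell.

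Transcripts of 8 of the 10 genes were lower in AP pancreas, by 37.3-fold for Sycn to 313-fold for Cuzd1. The other 2, Klk1 and Dnase1, had too few counts to be tested. In edgeR's quasi-likelihood test all 8 tested genes fell, where 30.5% of 13240 tested genes were called lower. All 8 were called lower by at least 5 on the log2 scale, as were 1.31% of tested genes. That cut was not planned and lies just under the smallest fall (Sycn, -5.22), so passing it is no separate result. None of the 8 rose, where 34.1% of tested genes were called higher. The AP and control values of all 8 did not overlap, with AP lower, as held for 33.1% of tested genes (70.9% in either direction). Bulk RNA cannot tell fewer acinar cells apart from less of these transcripts per cell.

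AP replicate 3 stood apart from the other AP libraries in these genes, and values are therefore given per library. It held 5.34 (Pdia2) to 9.66 (Zg16) times the mean of AP replicates 1 and 2, on the scale of normalised CPM (counts scaled to a common effective library size). Summed digestive enzyme transcripts behaved likewise, with a ratio of 7.64. TMM, the scaling used for normalised CPM, sets the middle of the tested genes near no change, and normalised CPM are not shares of reads. With library totals in place of TMM the median log2 fold change of all tested genes was 2.25 instead of 0.07, and 11680 genes were called higher and 572 lower, against 4520 and 4032 with TMM. Each of the 8 genes still fell with library totals, by 8.63-fold (Sycn) to 72.6-fold (Cuzd1), and 4.32% of tested genes were called lower in that fit. Gp2 (-3.66), Sycn (-3.11), Zg16 (-3.62) and Erp27 (-3.93) were among those short of the log2 cut of 5 there.

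Among the proteins of the granule membrane and matrix, Gp2 had 166, 164 and 1351 normalised CPM in AP replicates 1 to 3, against 27049, 30824 and 34151 in control replicates 1 to 3. AP replicate 3 was far above the other AP libraries and still far below the lowest control. The log2 fold change was -5.77 ± 1.02 (SE, edgeR adjusted p = 0.0012), and -7.54 without AP replicate 3. Sycn had 92.9, 85.3 and 780.4 normalised CPM in AP, against 11416, 10719.9 and 13664 in controls. Its fall was the smallest of the 8 (-5.22 ± 0.97, edgeR adjusted p = 0.00155, and -7.07 without AP replicate 3). Zg16 had 93.7, 69.1 and 787 normalised CPM in AP and 14974, 15198 and 20141 in controls (-5.73 ± 1.05, edgeR adjusted p = 0.00146, and -7.69 without AP replicate 3). The falls of Gp2, Sycn and Zg16 lay within 1 SE of one another. These SEs include the spread from AP replicate 3 that the genes share, so they do not show whether the falls differ within libraries.

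Cuzd1, which also belongs to the granule, had the largest fold change of the 8. It had 8.98, 9.68 and 88.6 normalised CPM in AP, against 8964, 13529 and 11089 in controls. AP replicates 1 and 2 were close together and the controls differed by up to 1.51-fold. The log2 fold change was -8.29 ± 1.14 (edgeR adjusted p = 2.91e-04), and -10.24 without AP replicate 3.

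Of the secreted hydrolases, Rnase1 made up 0.0145%, 0.0242% and 0.0969% of all counts with a gene name in AP replicates 1 to 3, against 2.37%, 3.45% and 3.15% in control replicates 1 to 3. In normalised CPM these are 65, 113 and 486 in AP and 50697, 72486 and 67484 in controls. The groups were far apart, and AP replicates 1 and 2 differed from each other more in Rnase1 than in Gp2 or Sycn. The log2 fold change was -8.17 ± 1.09 (edgeR adjusted p = 2.40e-04), and -9.49 without AP replicate 3.

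**Figure D1:**
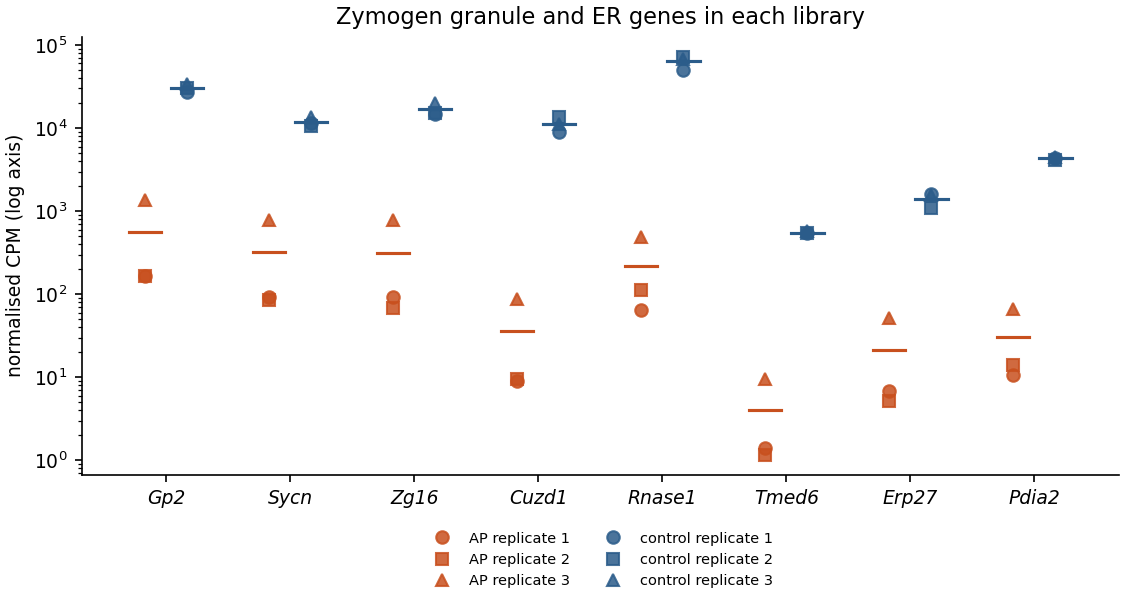
Normalised CPM (log axis) of the 8 tested genes in each library, with AP in orange on the left of each pair and controls in blue on the right; symbols give the replicate and bars the group mean of 3 libraries. The control libraries cluster, AP replicate 3 (triangle) lies above AP replicates 1 and 2 in every gene, and no AP value reaches a control value.

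The 3 genes of ER and Golgi proteins fell with the granule genes. Tmed6 had 1.43, 1.17 and 9.44 normalised CPM in AP, against 541, 541 and 579 in controls, which were the most alike controls of the 8 genes, at 1.07-fold between highest and lowest. Its log2 fold change was -7.12 ± 0.84 (edgeR adjusted p = 1.22e-04), and -8.74 without AP replicate 3. Pdia2, the disulfide isomerase best known from pancreas, had 10.8, 14.1 and 66.5 normalised CPM in AP and 4331, 4148 and 4464 in controls (-7.15 ± 0.81, edgeR adjusted p = 9.69e-05, and -8.44 without AP replicate 3). Erp27 had 6.9, 5.22 and 52.2 normalised CPM in AP and 1602, 1097 and 1551 in controls (-6.05 ± 0.94, edgeR adjusted p = 5.96e-04, and -7.87 without AP replicate 3). In all 3 the lowest control was more than 10 times the highest AP library.

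In order of the fall, the genes ran Cuzd1, Rnase1, Pdia2, Tmed6, Erp27, Gp2, Zg16 and Sycn. Each differed from its neighbour in that order by no more than the larger of their SEs, apart from Tmed6 and Erp27. Those differed by more than either SE. The SEs include spread among the AP libraries that the genes share, so they do not show whether neighbours differ within libraries. The ratios to enzyme counts given below compare the genes within libraries. The median log2 fold change of the genes in this order was -6.59, or -4.46 with library totals, against 0.07 and 2.25 over all tested genes.

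**Figure D2:**
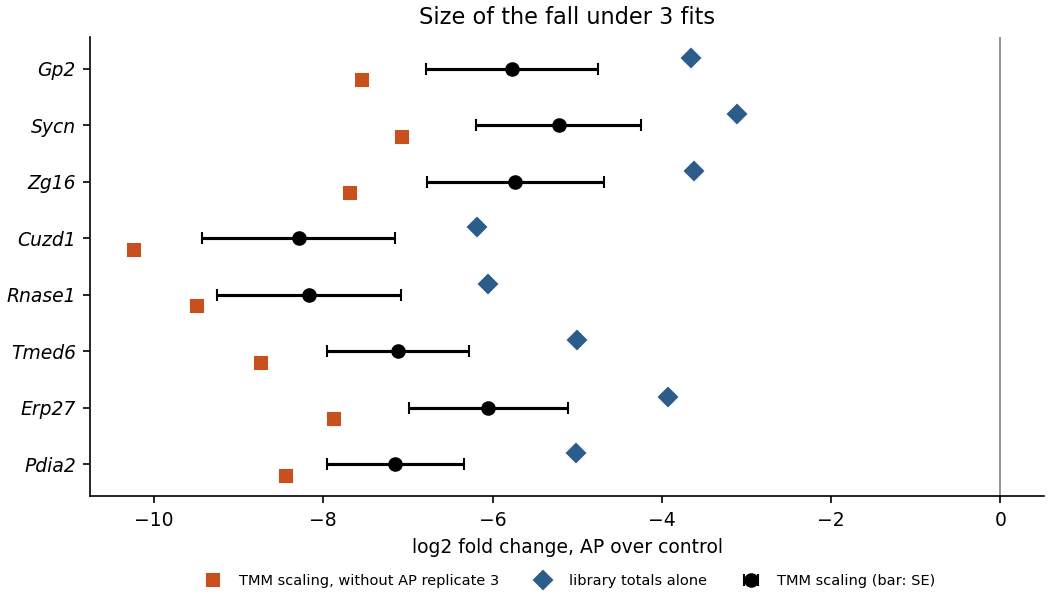
Log2 fold change, AP over control, of the 8 tested genes with TMM scaling (black, bar: SE), with TMM and without AP replicate 3 (orange squares) and with library totals alone (blue diamonds). All values are below 0; they are lowest without AP replicate 3, from -10.24 for Cuzd1 to -7.07 for Sycn, and nearest to 0 with library totals.

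Klk1 and Dnase1, both listed among granule proteins, were hardly detected in these libraries. Klk1 was at 0 counts in all 6, which allows at most 0.16 to 0.176 CPM of named counts in AP libraries and 0.174 to 0.225 in control libraries, for counting error only. Dnase1 had 2, 2 and 0 counts in AP and 2, 3 and 1 in controls, at or under the floor of 3 counts per library, so no fold is given. A single kallikrein row carried nearly all counts of the family. Klk1b3, for which RefSeq gives Klk1 as an older symbol, had 21.4, 30.9 and 133 normalised CPM in AP, against 3268, 3259 and 3932 in controls (log2 fold change -5.82 ± 0.75, edgeR adjusted p = 1.99e-04, and -7.06 without AP replicate 3). Of 25 family and pathway genes in the table, 17 were at 0 in every library and 2 were tested. The other one was the kinin receptor gene Bdkrb2 (0.88 ± 0.33, edgeR adjusted p = 0.0442), whose call ended without AP replicates 1 or 3 or control replicates 1 or 2 (edgeR adjusted p of 0.108 to 0.137), and in limma-voom (0.0705).

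Rat kallikrein genes are closely related copies, and the sources used here do not say how reads that match several places were counted. The split between the Klk1 and Klk1b3 rows is therefore uncertain. The start regions of these genes show how alike the copies are. They are parts of the RefSeq promoter windows in build GRCr8, at chr1:103779121-103779201 for Klk1 and chr1:103845580-103845685 for Klk1b3, both on the plus strand, and capitals mark their longest shared run, of 36 bases.
Klk1: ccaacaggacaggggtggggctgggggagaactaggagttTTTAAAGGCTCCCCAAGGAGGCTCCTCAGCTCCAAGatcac
Klk1b3: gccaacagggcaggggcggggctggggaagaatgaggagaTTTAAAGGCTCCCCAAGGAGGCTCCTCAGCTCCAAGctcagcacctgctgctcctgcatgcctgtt

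Within a library, the genes can be set against digestive enzyme transcripts with no scaling between libraries. The 20 enzyme genes took 1%, 1.04% and 7.1% of named counts in AP replicates 1 to 3, against 59.7%, 58.8% and 58.4% in control replicates 1 to 3, and 19 of them fell. The 10 granule and ER genes took 0.0998%, 0.0992% and 0.722% in AP, against 5.6%, 7.06% and 7.14% in controls (means 0.307% ± 0.36 and 6.6% ± 0.869, SD, n = 3 each). The ratio of granule gene to enzyme counts is given gene by gene.

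Sycn counts were 2.08%, 1.76% and 2.19% of the enzyme counts in AP and 0.896%, 0.867% and 1.09% in controls. This put Sycn above its control ratio by 1.08 on the log2 scale (AP minus control; two-sided exact permutation p = 0.1, the smallest that 3 against 3 allows). Gp2 was at 3.72%, 3.39% and 3.8% in AP and 2.12%, 2.49% and 2.73% in controls, a log2 difference of 0.58 (exact permutation p = 0.1). For both genes every AP library had a higher ratio than every control library, but when only Prss1 and Ctrb1 stood for the enzymes the difference of Gp2 was -0.09 and that of Sycn 0.42.

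Cuzd1 and Rnase1 went the other way. Cuzd1 counts were 0.201%, 0.2% and 0.249% of the enzyme counts in AP and 0.703%, 1.09% and 0.886% in controls, a log2 difference of -2.03 (exact permutation p = 0.1). Rnase1 counts were 1.45%, 2.33% and 1.37% in AP and 3.98%, 5.86% and 5.39% in controls, a log2 difference of -1.59 (exact permutation p = 0.1). Neither gene overlapped between the groups, and with Prss1 and Ctrb1 alone the differences were -2.69 and -2.25. The design cannot reach a p under 0.1 for any of these ratios.

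The ratios of Tmed6 and Pdia2 were lower in every AP library, with log2 differences of -0.68 and -0.54 (exact permutation p = 0.1 each). Zg16 and Erp27 overlapped between the groups, with differences of 0.50 and 0.28 (exact permutation p = 0.2 and 0.3), and with Prss1 and Ctrb1 alone these were -0.16 and -0.39. Klk1b3, measured the same way, was higher in AP by 0.81 (exact permutation p = 0.1).

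**Figure D3:**
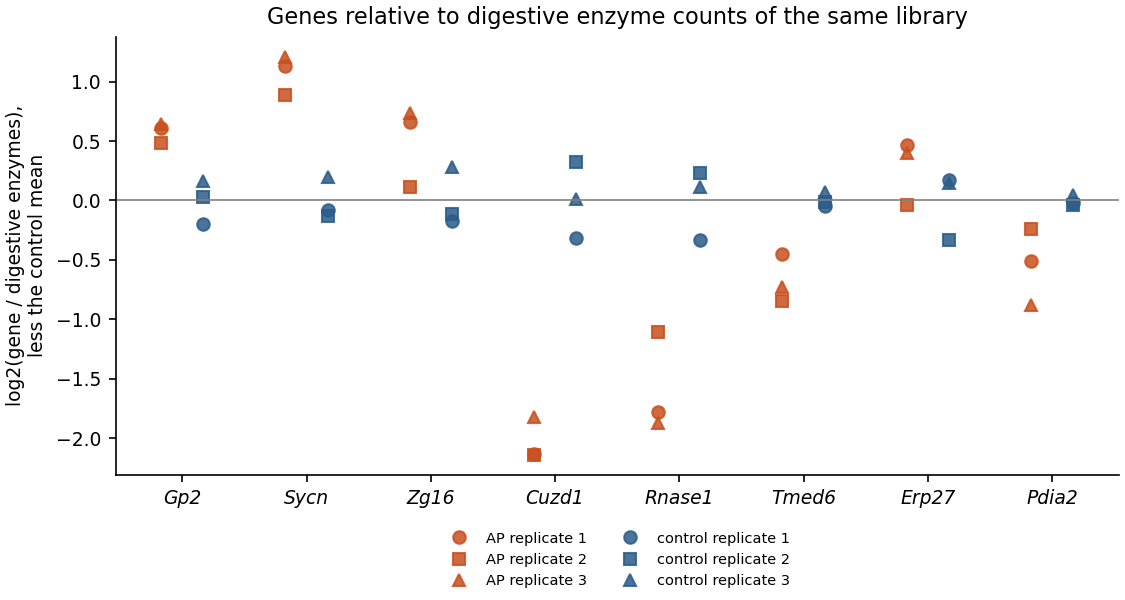
Log2 ratio of each of the 8 tested genes (count + 0.5) to the summed digestive enzyme counts of the same library, less the control mean of that gene, with AP in orange left of controls in blue and symbols for replicates. Gp2 and Sycn lie above 0 in all AP libraries, Cuzd1 and Rnase1 lie below -1 in AP, and Zg16 and Erp27 overlap with controls.

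The make-up of the summed counts shifted accordingly (counts, not per transcript length). The shares are parts of the same sum, so lower shares of Rnase1 and Cuzd1 raise those of the other genes. Rnase1 held 14.6%, 24.4% and 13.4% of the counts of the 10 genes in AP replicates 1 to 3, against 42.4%, 48.8% and 44.1% in control replicates 1 to 3. Gp2 held 37.3%, 35.6% and 37.3% in AP and 22.6%, 20.8% and 22.3% in controls. Sycn held 20.3% ± 1.6 in AP and 8.56% ± 1.21 in controls, and Cuzd1 held 2.19% ± 0.23 in AP and 7.95% ± 1.01 in controls (SD, n = 3 each). The shares of Rnase1, Gp2, Sycn and Cuzd1 did not overlap between the groups, and AP replicate 3, which kept more of these transcripts, had nearly the same make-up as AP replicate 1.

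**Figure D4:**
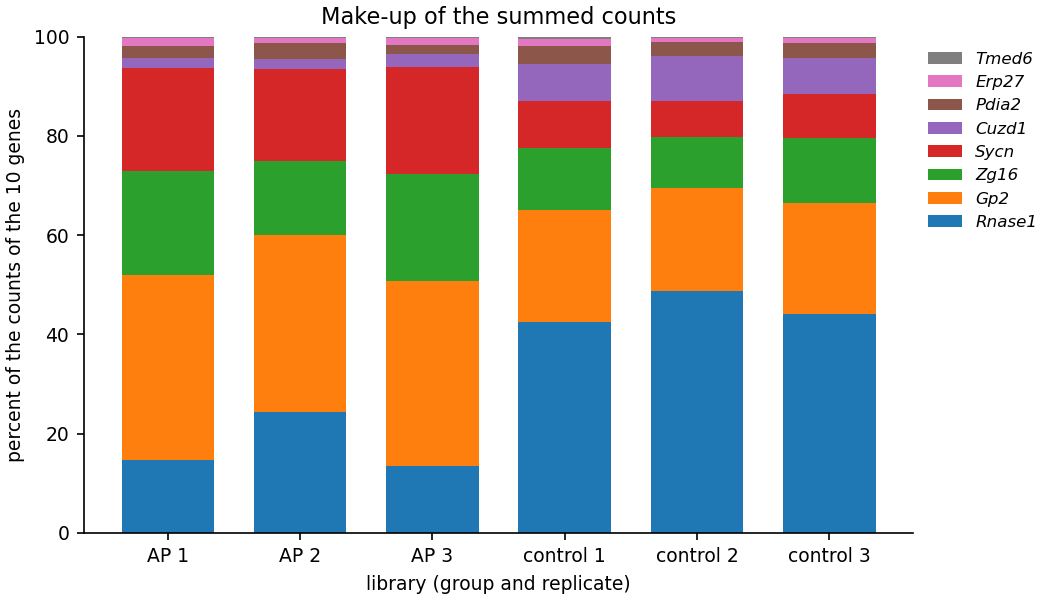
Percent of the summed counts of the 10 genes held by each gene in the 3 AP libraries (left) and the 3 control libraries (right); Klk1 and Dnase1 hold too few counts to be drawn. Rnase1 is 13.4% to 24.4% of the bar in AP and 42.4% to 48.8% in controls, and Gp2 35.6% to 37.3% in AP and 20.8% to 22.6% in controls.

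Relatives of the ER genes had smaller fold changes than Tmed6, Erp27 and Pdia2, with the exception of Tmed11. The TMED (p24) family carries cargo between the ER and the Golgi in most cell types. Of 10 other TMED genes, 7 fell and 1 rose (median log2 fold change -1.20, or 0.98 with library totals, against 0.07 and 2.25 over all tested genes). Tmed11 had 0.296, 0.199 and 5.3 normalised CPM in AP, against 411, 416 and 486 in controls (-7.86 ± 1.12, edgeR adjusted p = 3.58e-04, and -10.76 without AP replicate 3). AP replicates 1 and 2 gave 12 and 8 counts of it. Tmed3 had 30.8 to 34.9 normalised CPM in AP and 285 to 311 in controls (-3.15 ± 0.13), and fell with library totals too (-0.97).

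Tmed2 (-1.54 ± 0.14), Tmed4 (-1.50 ± 0.15), Tmed10 (-1.55 ± 0.17), Tmed9 (-0.90 ± 0.14) and Tmed7 (-0.37 ± 0.13) fell with TMM and rose with library totals (0.62 to 1.80). The call of Tmed7 ended without AP replicates 1 or 2 or control replicates 1 or 3 (edgeR adjusted p of 0.0674 to 0.113), and with no filter on low counts (0.0826). Tmed1 rose (1.40 ± 0.24), and Tmed5 (0.18 ± 0.19) and Tmed8 (0.40 ± 0.32) did not pass the test. AP replicate 3 held 0.577 to 1.42 times the mean of the other AP libraries in these 9 genes other than Tmed11, where the ratio was 21.4.

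Of 17 tested genes of other disulfide isomerases and ER oxidases, 5 fell and 7 rose (median 0.22, or 2.40 with library totals, where 15 rose and 1 fell). Ero1b, an ER oxidase that recharges disulfide isomerases, had 29.6, 26.9 and 55.3 normalised CPM in AP and 906, 933 and 999.6 in controls (-4.67 ± 0.32, edgeR adjusted p = 5.73e-06). It was the one that fell with either scaling. P4hb, the general disulfide isomerase, fell with TMM (-1.89 ± 0.23) and was at 0.29 with library totals, where it was not called. Txndc11 (-1.48 ± 0.11), Erp44 (-1.46 ± 0.14) and Pdia6 (-0.84 ± 0.21) fell with TMM and rose with library totals. Pdia3 (0.55 ± 0.17) and Pdia4 (0.66 ± 0.22) rose, with calls that ended without AP replicate 2 or control replicate 2 and, for Pdia4, without control replicate 3. Pdia5 did not pass (-0.72 ± 0.31), but was called lower in the DESeq2 Wald test (adjusted p = 0.0444). It was also called lower without AP replicate 2 (edgeR adjusted p = 0.0474) or control replicate 2 (edgeR adjusted p = 0.0214).

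Among relatives of the nucleases, Rnase6 and the ribonuclease inhibitor gene Rnh1 fell, while lysosomal and membrane DNases rose. Rnase6, which in human encodes an antimicrobial ribonuclease of leukocytes, had 4.64, 3.58 and 6.38 normalised CPM in AP, against 748, 789 and 658 in controls (-7.23 ± 0.28, edgeR adjusted p = 6.84e-07). AP replicate 3 held 1.55 times the mean of the other AP libraries in Rnase6 and 5.47 times in Rnase1. Rnase6 and Rnase1 are next to each other in RefSeq, on opposite strands. Rnh1, whose protein blocks RNase 1 in the cytosol, fell by 2.86 ± 0.16 on the log2 scale, with 61.4, 75.6 and 81.8 normalised CPM in AP and 491, 553 and 545 in controls. Dnase2, the lysosomal DNase, rose by 1.90 ± 0.11 and Dnase1l1 by 1.34 ± 0.23. Rnase1l2, a close copy of Rnase1, had 26, 23 and 3 counts in AP and 28, 28 and 21 in controls (-2.96 ± 0.58, not called with library totals at -0.77), and reads may be split between these copies. Dnase1l3 did not pass (0.09 ± 0.69), and Rnase10 had 39, 126 and 49 counts in AP and 0 in every control library.

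**Figure D5:**
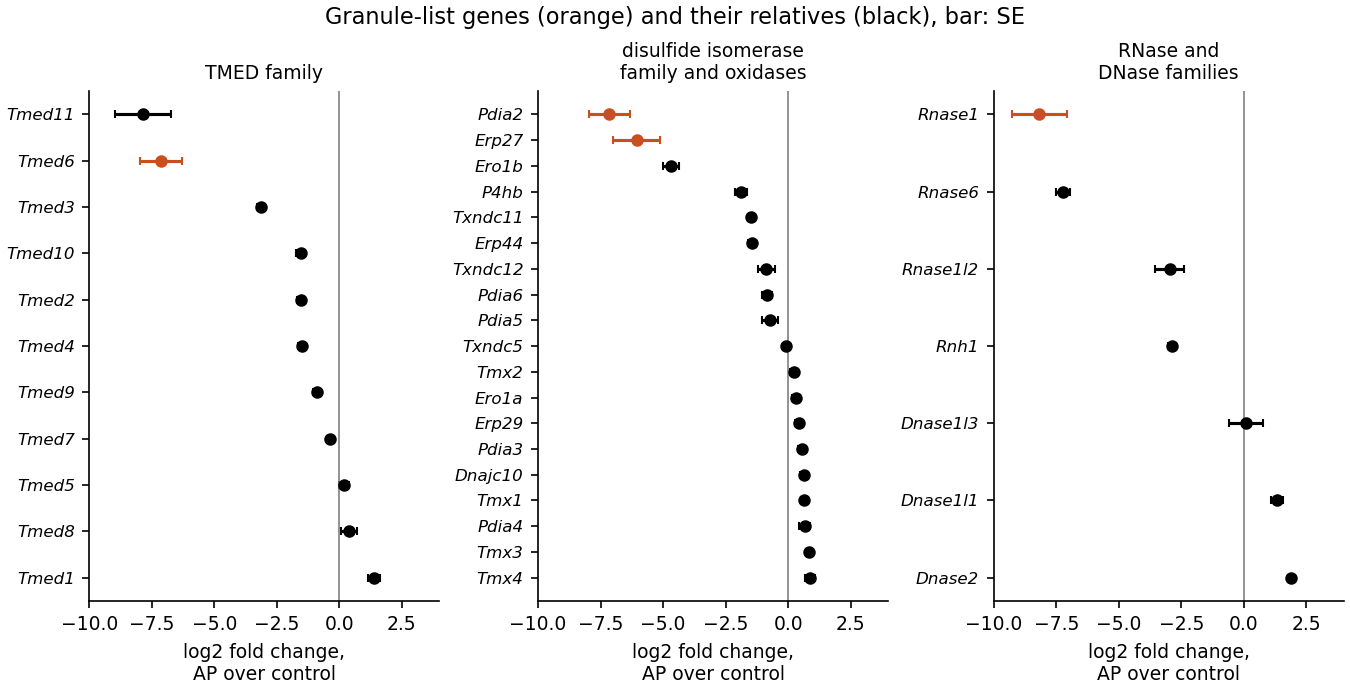
Log2 fold change, AP over control, with its SE, of tested listed genes (orange) and of their tested relatives (black) in 3 families; Rnase10, with 0 control counts, is left out. Tmed6 lies beside Tmed11, Pdia2 and Erp27 lie below all their relatives, and Rnase1 lies below Rnase6.

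Genes of a granule trafficking and membrane list moved in either direction. This list is wider than trafficking, as it holds Tff2 (-6.71), Muc1 (-4.10) and zinc transporter genes. Of 18 tested, 10 fell and 4 rose with TMM (median -0.93), and 6 fell and 10 rose with library totals (median 1.25). Rab3d, a GTPase on the granule surface, fell by 3.99 ± 0.23 on the log2 scale and Sytl1, a synaptotagmin-like RAB27 effector, by 4.24 ± 0.21. The AP replicate 3 ratio was 1.62 in Rab3d and 1.53 in Sytl1, against 5.34 to 9.66 in the 8 granule and ER genes. In the same list it was 6.59 in Tff2 and 8.51 in the zinc transporter gene Slc30a2, within the range of the 8 and picked after the values were seen, and at most 3.26 (Rab26) in the others. Itpr3, whose product releases calcium from the ER, was at -2.00 ± 0.16 with TMM, where it fell, and at 0.17 with library totals, where it did not pass. Ap1s2, a subunit of the AP-1 clathrin adaptor, rose by 4.03 ± 0.20. Of structural relatives of GP2, CUZD1 and ZG16, 2 of 9 in the table were tested, Umodl1 and Cdcp1, and neither passed (log2 fold changes of 1.52 and 0.06, edgeR adjusted p of 0.133 and 0.888).

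All 10 tested acinar transcription factor genes fell (median -3.47), and with library totals the median was -1.31 and 2 of the 10 rose instead. Xbp1, which expands secretory capacity, fell by 3.60 ± 0.25, Foxa2 fell by 2.94 ± 0.24 and Nr5a2 fell by 3.28 ± 0.33 on the log2 scale. Ptf1a, picked after its values were seen because its product reads the E-box, had 0.986, 0.249 and 7.82 normalised CPM in AP and 126, 122 and 98.5 in controls (-5.29 ± 0.94, and -7.54 without AP replicate 3). Its AP replicate 3 ratio of 12.7 was above those of the 8 genes. So were those of Bhlha15 (10.5) and Rbpjl (10.4), and that of Gata4 (7.11) lay within their range. In the rest of the list the ratio ran from 0.765 (Creb3l2) to 1.99 (Nr5a2), below the 8 genes, with Xbp1 at 1.60 and Foxa2 at 1.72. Xbp1, Foxa2 and Nr5a2 were named for a low p, which favours genes with little spread among AP libraries.

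The genes whose pattern over the 6 libraries was most like the mean of the 8 included acinar secretory genes. By root mean square difference of log2(normalised CPM + 1), less the control mean, the 5 nearest of 10368 genes included Ctrc, chymotrypsin C (0.164), Cela2a, an elastase (0.186), Tff2, a trefoil peptide (0.253), and Pnlip, pancreatic lipase (0.265). Within the 8, the same distance to their mean ran from 0.226 for Tmed6 to 1.25 for Cuzd1. The log2 fold changes of Ctrc, Cela2a, Tff2 and Pnlip lay between -6.89 and -6.43, and between -8.66 and -7.99 without AP replicate 3. These 4 genes were chosen for a like pattern over the same libraries, so fold changes near those of the 8 follow from the choice.

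Genes next to the listed ones in RefSeq did not all move with them. Of 16 neighbours of the 8 tested genes, 7 were tested, of which 3 fell, 2 rose and 2 did not pass. Erp27 lies between Mgp, which encodes matrix Gla protein, and Arhgdib, which is known from leukocytes. Mgp had 118, 122 and 133 normalised CPM in AP and 36.7, 28.3 and 41.5 in controls, and rose by 1.81 ± 0.15 on the log2 scale. Arhgdib had 122, 165 and 146 in AP and 12.5, 12.6 and 9.8 in controls, and rose by 3.62 ± 0.17. Both rose while Erp27 between them fell.

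The remaining neighbours gave 1 further large fall. Nccrp1, beside Sycn, had 1, 3 and 24 counts in AP and 72, 199 and 508 in controls (-7.23 ± 1.08, -9.43 without AP replicate 3 and -6.04 without control replicate 3). Terf2, a telomere-binding protein gene beside Tmed6, was at -0.43 ± 0.15 (edgeR adjusted p = 0.0365), a call that ended without any AP library and without control replicate 1 or 2 (adjusted p of 0.0515 to 0.125) or with no filter (0.0788), and at 1.75 with library totals. Nip7 on the other side of Tmed6 (0.14 ± 0.20) and Axin1 beside Pdia2 (-0.23 ± 0.11) did not pass.

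Leukocyte markers and most stromal markers rose in AP, whereas duct, islet and endothelial markers were mixed with TMM. The part of these cells in the falls was not tested. The 9 acinar markers that define the labelled tissue summed to 2615 to 21306 normalised CPM in AP, against 618138 to 658063 in controls, and all 9 fell. All 10 leukocyte markers rose, with sums of 5061 to 5386 normalised CPM in AP and 110.4 to 135 in controls, and 7 of 8 stromal markers rose (4532 to 9692 in AP, 1044 to 1405 in controls). Of 8 duct markers 3 rose and 3 fell (824 to 1173 in AP, 380.0 to 456 in controls). Most of the AP duct sum came from Spp1 alone, with 619.9, 941 and 928 normalised CPM in AP and 47.8, 79.7 and 99.6 in controls. The higher duct sum in AP therefore does not describe the other duct markers. Of 10 islet markers 2 rose and 1 fell (917 to 1388 in AP, 616 to 1404 in controls), and of 6 endothelial markers 2 rose and 1 fell (152 to 164 in AP, 126 to 157 in controls). Kidney and salivary markers summed to 4.41 to 11 normalised CPM in AP and 0.745 to 1.12 in controls, with Smgc and Bpifa2 at 0 in all libraries. Nearly all of the AP sum came from Aqp5, a water channel gene of salivary glands, which had 4.27, 11 and 5.82 normalised CPM in AP and 0.248, 0.758 and 0.643 in controls and rose (3.68 ± 0.55, edgeR adjusted p = 4.39e-04). With library totals the direction of the calls differed for 3 of these lists: 7 duct markers rose and 1 fell, all 10 islet markers rose and all 6 endothelial markers rose.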

How the data were processed

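The tools named in the submitters' processing notes are STAR, featureCounts, FastQC and DESeq2, and the build is mRatBN7.2. The sources used here state no tool version, annotation release, strand setting or treatment of multi-mapping reads. The deposited values are raw read counts per gene, in whole numbers. The 3110 rows with no gene name, of 23096, stayed out of library sizes and tests (1.41% to 2.1% of counts in AP libraries, 5.48% to 7.69% in controls), and rows sharing a symbol were summed. RefSeq tables of GRCr8 (16799 of 19780 symbols matched) gave names, gene order, strands and promoter sequences only.

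The 3 AP and 3 control libraries were compared with edgeR 4.0.16 (R 4.3.3): quasi-likelihood test, TMM, default low-count filter, no covariate, Benjamini-Hochberg adjustment over 13240 genes, called at 0.05. SE was derived as the size of the log2 fold change divided by the root of the F statistic. Ratios to enzyme counts (pseudocount 0.5) were compared with exact permutation tests. The edgeR test was checked on simulated counts, with balanced changes far smaller than the falls of the granule and ER genes. That simulation held no shift in the make-up of the libraries and no outlying AP library, so it does not cover those cases. The permutation tests were not simulated. Alternatives used DESeq2 1.42.0, limma 3.58.1, other scalings and filters, a replicate block and each library left out.

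The labels do not say that libraries came from separate animals, so the p-values reflect only the spread among these samples, which may be technical. No library was a repeat of another (chi-square per gene of 39.5 to 148 within groups). Counting limits ignore PCR duplication. The genes, lists and tests were chosen with earlier results of these data known. Named genes are the 10 listed genes, their family members, the 4 genes of lowest p in the trafficking, disulfide isomerase and transcription factor lists, and the 5 nearest profiles with a mean logCPM of at least 2. Gene neighbours and others were added after values were seen. A few genes that this rule names are not reported here.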

Additional observations from a re-analysis of the deposited data

How the results depend on the processing

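All 8 tested genes fell and stayed called under each of 15 alternatives (120 of 120 fits). Library totals moved sizes most towards 0: the median of the 8 was -4.46, and 11680 genes were called higher and 572 lower, against 4520 and 4032. Leaving out 1 library at a time put the median between -8.16 (without AP replicate 3) and -6.13. limma-voom gave a median of -7.27. The control share of the 10 genes was 16.1% of counts outside the enzymes. Against Prss1 and Ctrb1 alone, the ratios of Gp2, Zg16 and Erp27 turned to -0.09, -0.16 and -0.39. Only the denominator changed, so the ratios of all 8 genes moved down alike, such as Sycn from 1.08 to 0.42 and Cuzd1 from -2.03 to -2.69. Prss1 (-6.03) and Ctrb1 (-5.55) fell less than the median of the 20 enzyme genes (-6.62), and why they did was not tested. With library totals, signs turned for Tmed2 (0.64), Tmed4 (0.68), Tmed7 (1.80), Tmed9 (1.27), Tmed10 (0.62), P4hb (0.29), Pdia5 (1.45), Pdia6 (1.34), Txndc11 (0.70), Erp44 (0.72), Itpr3 (0.17), Terf2 (1.75) and Axin1 (1.95), which moved with the median of all genes, by 2.18. Uncalled genes turned without 1 library: Tmed5 (-0.02) and Nip7 (-0.03) without AP replicate 3, and Dnase1l3 (-0.14, -0.44 and -0.07) without AP replicate 3 or control replicates 1 or 3, in leave-out ranges of -0.02 to 0.33, -0.03 to 0.27 and -0.44 to 1.40. Cdcp1, near 0 throughout with TMM, ran from -0.12 to 0.35 without 1 library and was at -0.03 in limma-voom and at -0.01 with the replicate block. Replicate numbers are shared between groups, but same-numbered libraries did not deviate together (correlations of -0.0286, 0.0325 and -0.107), nor did each library correlate best with its own number. With the replicate block 4200 genes were called higher and 3704 lower, and the 8 genes ran from -9.21 (Cuzd1) to -6.08 (Sycn). Under the block Tmed7 (adjusted p = 0.0778), Pdia3 (adjusted p = 0.059) and Terf2 (adjusted p = 0.0893) were not called. Dnase1, at or under 3 counts per library, could not be tested at this depth, and the cause of the 0 counts of Klk1 was not tested.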
